A study of Mus musculus with 10 samples.

Results

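Genes that join epithelial cells to one another were followed through every library of a mouse mammary gland study. The set was 39 genes listed by name and not by their values, although earlier results of these data were known. It held 10 membrane proteins of the tight junction, 6 proteins of the tight junction plaque and of cell polarity, and 12 desmosome genes. It also held 8 genes of the adherens junction and nectin group with Epcam, and 3 regulators of epithelial transcription and splicing. All 39 were found among the 55487 genes of the count tables, and each one had enough counts to be tested in every comparison. The questions were how high these genes stood in mammary epithelial cells (MECs), what share of that level appeared in macrophage libraries of the same tissue, and whether either differed when Cebpb was deleted in myeloid cells.

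RNA was sequenced from 4 MEC libraries and 6 macrophage libraries of 10-wk-old female BALB/c mice in diestrus. CebpbΔM mice carried floxed Cebpb alleles and Csf1r-iCre, whose recombinase acts in CSF1R-expressing myeloid cells and not in macrophages alone, and the labels call them knockdown mice. WT mice carried the same floxed alleles without Cre, so both genotypes share the floxed locus. The groups were MEC WT (replicates 1 and 3), MEC CebpbΔM (1 and 3), macrophage WT (4 and 5) and macrophage CebpbΔM (4, 5, 6 and 7). MECs were collected as digested organoids and purified by depletion of other lineages, whereas macrophages were purified by positive selection for F4/80. Cell type, isolation and count table therefore change together and cannot be told apart. No source says whether libraries came from separate or pooled animals, so the P-values measure only the spread between these samples.

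Epithelial sheets are sealed near the apical surface by tight junctions, in which claudins and occludin form strands that are held to the actin cytoskeleton by plaque proteins such as ZO-1. Beneath them, E-cadherin and the catenins form the adherens junction, and desmosomes tie the keratin filaments of neighboring cells together through desmosomal cadherins, plakophilins, plakoglobin and desmoplakin. In the mammary gland, luminal cells carry E-cadherin and the tight junctions that close the lumen, whereas basal cells carry P-cadherin. Macrophages lie against the ducts without being part of these sheets, although beta-catenin, p120 catenin and ZO-1 also serve many other cell types.

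Promoter sequence is shown for the 3 genes with the highest MEC level, Cldn4, Cldn3 and Epcam, and for Ctnnd1 and Pkp4, whose level in the macrophage libraries was close to or above that in MECs. Each stretch is the 250 bases before a RefSeq transcription start on GRCm38.p6, written 5′ to 3′ on the strand of the gene in lower case. Capitals mark CAGGTG or its reverse complement CACCTG, the E-box letters recognized by repressors such as Snai1 and Zeb1. The windows lie at chr5:134946935-134947184 on the minus strand for Cldn4, chr5:134985964-134986213 on the plus strand for Cldn3, chr17:87635729-87635978 on the plus strand for Epcam, chr2:84650741-84650990 on the minus strand for Ctnnd1 and chr2:59160600-59160849 on the plus strand for Pkp4.
Cldn4: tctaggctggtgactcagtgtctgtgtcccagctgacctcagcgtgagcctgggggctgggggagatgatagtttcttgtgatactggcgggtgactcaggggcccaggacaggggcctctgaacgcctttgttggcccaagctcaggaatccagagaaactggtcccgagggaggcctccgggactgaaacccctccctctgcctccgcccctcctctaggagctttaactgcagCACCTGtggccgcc
Cldn3: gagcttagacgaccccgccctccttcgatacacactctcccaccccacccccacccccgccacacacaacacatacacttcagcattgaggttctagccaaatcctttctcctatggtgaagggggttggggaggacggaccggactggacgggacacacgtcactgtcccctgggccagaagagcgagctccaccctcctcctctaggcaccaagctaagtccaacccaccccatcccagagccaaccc
Epcam: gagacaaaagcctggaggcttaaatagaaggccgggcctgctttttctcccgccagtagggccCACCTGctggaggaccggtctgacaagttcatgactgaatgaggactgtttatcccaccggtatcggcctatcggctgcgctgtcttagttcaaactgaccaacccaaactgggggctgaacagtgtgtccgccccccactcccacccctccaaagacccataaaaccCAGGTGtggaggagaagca
Ctnnd1: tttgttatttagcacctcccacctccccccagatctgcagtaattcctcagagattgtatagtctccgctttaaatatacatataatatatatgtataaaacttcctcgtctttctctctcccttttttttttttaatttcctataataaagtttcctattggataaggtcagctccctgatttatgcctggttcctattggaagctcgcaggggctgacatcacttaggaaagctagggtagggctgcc
Pkp4: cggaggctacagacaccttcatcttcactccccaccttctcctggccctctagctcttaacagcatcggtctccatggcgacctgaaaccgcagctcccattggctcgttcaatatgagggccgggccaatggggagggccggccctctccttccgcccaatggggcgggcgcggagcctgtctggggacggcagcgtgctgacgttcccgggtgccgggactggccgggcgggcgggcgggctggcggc
Cldn4 held 1 match, which began 14 bases before the start, and Epcam held 2, at 187 and 19 bases before it. The windows shown for Cldn3, Ctnnd1 and Pkp4 held none. Among the 39 genes, 21 had an entry in the RefSeq table, with 32 windows in all, and Ppl, Dsc2, Dsg2, Cldn8, Dsc3, Pkp2, Perp, Evpl, Ovol1, Grhl2, Nectin1, Cdh1, Cldn23, Esrp1, Ctnna1, Pkp3, Pkp1 and Cdh3 had none. CAGGTG on either strand was found in 12 of the 32 windows (37.5%), against 5657 of 32851 windows of all genes (17.2%). A gene can have several windows. Counted by gene, 10 of 21 held it in at least 1 window, against 5252 of 27025 of all genes. The 10 genes with it were Cldn4, Cldn7, Crb3, Epcam, F11r, Ocln, Pard3, Pard6b, Pkp4 and Tjp3, where another of the windows of Pkp4 held it. The grainyhead letters AACCNGTT, searched on both strands, were found in 1 of 32 windows (3.12%), that of Cgn, against 588 of all windows (1.79%). These matches are letters in a window and were not tested as binding sites.

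Total counts ran from 25310926 to 27008166 per MEC library and from 16935000 to 20174722 per macrophage library, and no pair of replicates agreed within counting noise. The targeted gene itself, Cebpb, had 25 and 28 counts in MEC WT, 69 and 42 in MEC CebpbΔM, 13 and 15 in macrophage WT, and 16, 13, 5 and 4 in macrophage CebpbΔM 4 to 7. The macrophage genotypes overlapped at these low counts, which did not separate the labels, so the macrophage groups are named below as they were labelled. All 10 macrophage markers examined, among them Adgre1 and Csf1r, were higher in the macrophage libraries of both genotypes, and their summed level in CPM, the count per fixed library total, scaled by the trimmed mean of M-values (TMM), was 7494 or more in each macrophage library against 43.9 or less in each MEC library, where Adgre1 was at 0 in at least 1. Epithelial RNA was nevertheless present in every macrophage library. The 6 keratins Krt8, Krt18, Krt19, Krt7, Krt5 and Krt14 summed to between 27170 and 34870 CPM in MECs, between 8725 and 8991 CPM in macrophage WT and between 4883 and 5921 CPM in macrophage CebpbΔM, with none of them at 0.

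In MECs, junction RNA was dominated by a few membrane proteins. Levels between genes are compared in TPM, which divides counts by gene length and sets the library's sum to a fixed total. Cldn4, a claudin of the tight junction strand, averaged 3436 TPM over the 4 MEC libraries. Cldn3, another claudin, averaged 2250 TPM and Epcam, a luminal adhesion protein, 2237 TPM. Next came Cldn7 with 820 TPM, E-cadherin (Cdh1) with 600 TPM and F11r, the junctional adhesion molecule A, with 555 TPM. The 5 highest genes held 70.3% to 82.0% of the TPM of all 39 in each MEC library. In all, 13 genes passed 100 TPM and 5 stayed under 10 TPM.

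**Figure D1:**
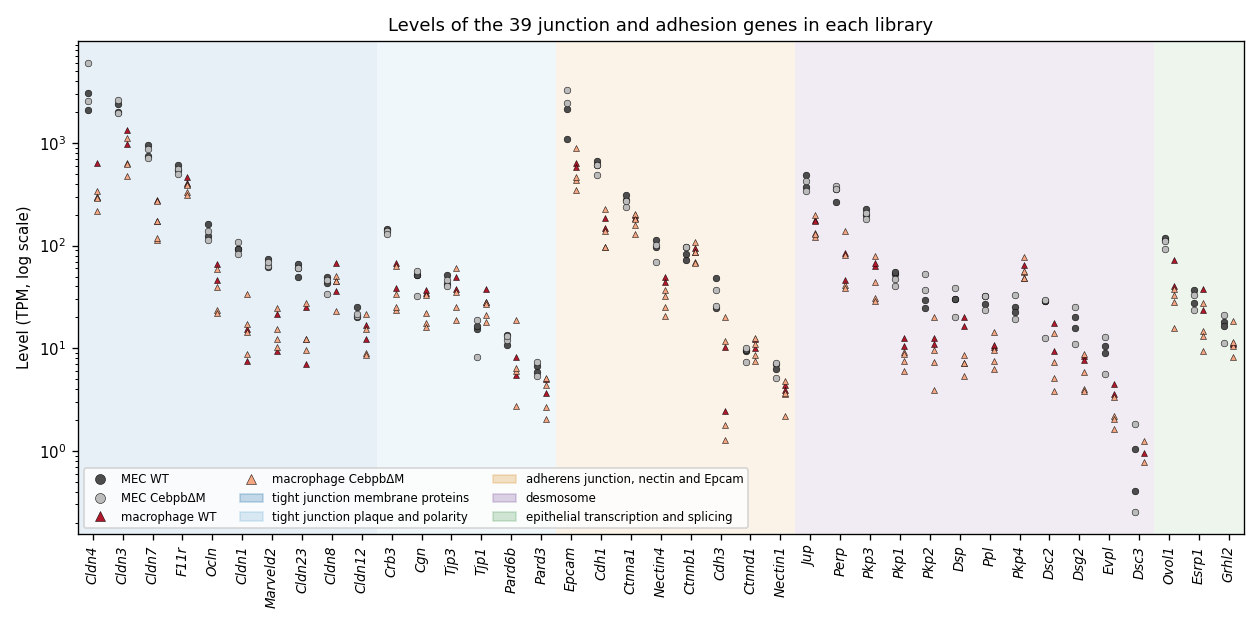
Level of each of the 39 genes in every library, in TPM on a log scale, with genes grouped by role (background color) and ordered by mean MEC level. Circles are MEC libraries and triangles are macrophage libraries, and points at 0 (Dsc3 in 3 macrophage libraries) are not drawn. Cldn4, Cldn3 and Epcam lead in MECs, and most triangles sit below the circles of the same gene. All triangles of Pkp4 lie above its circles. Those of Tjp1 mostly do, but macrophage CebpbΔM 7 (18.2 TPM) lies below MEC CebpbΔM 3 (19.0 TPM).

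The roles differed in level. The tight junction membrane proteins ranged from 21.8 TPM (Cldn12) to Cldn4, with a median of 115 TPM over the 10 genes. In the plaque and polarity group, Crb3, the Crumbs protein of the apical membrane, led with 140 TPM, whereas Tjp1, which encodes ZO-1, averaged 14.8 TPM and the polarity gene Pard3 6.29 TPM. Among the adherens junction genes, alpha-catenin (Ctnna1) averaged 276 TPM, beta-catenin (Ctnnb1) 87.2 TPM, P-cadherin (Cdh3) 34.0 TPM and p120 catenin (Ctnnd1) 9.06 TPM.

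In the desmosome group, plakoglobin (Jup) averaged 409 TPM, the tetraspan protein Perp 340 TPM and plakophilin 3 (Pkp3) 204 TPM. The desmosomal cadherins stood lower, with 18.1 TPM for Dsg2 and a slightly higher level for Dsc2. Desmocollin 3 (Dsc3) was the lowest of the 39 genes with 0.882 TPM. Of the 3 regulators, the transcription factor Ovol1 averaged 109 TPM, the splicing regulator Esrp1 30.2 TPM and the grainyhead factor Grhl2 16.7 TPM.

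The 4 MEC libraries were close for most of these genes and apart for a few. The highest library exceeded the lowest by less than 1.5-fold for 22 genes and by 2-fold or more for 9. MEC CebpbΔM 1 stood apart: it was the highest MEC library for 8 genes and the lowest for 20. Summed over the 39 genes as CPM of the library total, the level was 10820 CPM in MEC WT 1, 10630 CPM in MEC WT 3, 14150 CPM in MEC CebpbΔM 1 and 10810 CPM in MEC CebpbΔM 3, or 1.08%, 1.06%, 1.42% and 1.08% of all counts. The high sum of MEC CebpbΔM 1 came with Cldn4 and Epcam, whose values are given below.

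In the macrophage libraries the same 39 genes summed to 4732 CPM in WT 4, 3812 CPM in WT 5, and 4802, 3339, 2822 and 2915 CPM in CebpbΔM 4 to 7. All 6 were below the 4 MEC libraries. The mean was 4272 ± 651 CPM (SD, n = 2) in the libraries labelled WT and 3469 ± 916 CPM (SD, n = 4) in those labelled CebpbΔM, and their ranges overlapped. Cldn3 had the highest TPM of the set in each macrophage library, followed by Epcam, F11r and Cldn4 in 5 of them, whereas Cldn4 led in 3 of the 4 MEC libraries.

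**Figure D2:**
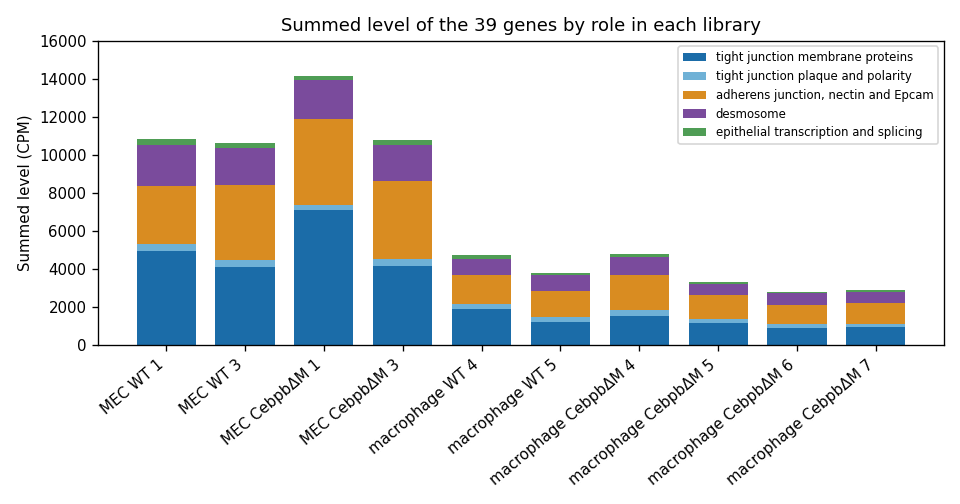
Summed level of the 39 genes in each of the 10 libraries, in CPM on a linear axis, with each bar stacked by role. The 4 MEC bars reach 10630 to 14150 CPM and the 6 macrophage bars 2822 to 4802 CPM, and tight junction membrane proteins with adherens junction genes and Epcam make up most of each bar.

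For each gene, the share carried into a macrophage library was its level there as a percent of its mean over the 4 MEC libraries, both in TMM-scaled CPM, the scale of the values by library below. The median share over the 39 genes was 43.5% in macrophage WT 4, 36.3% in WT 5, and 42.3%, 26.7%, 21.1% and 23.9% in CebpbΔM 4 to 7. It averaged 39.9 ± 5.09% (SD, n = 2) in the libraries labelled WT and 28.5 ± 9.48% (SD, n = 4) in those labelled CebpbΔM, with CebpbΔM 4 inside the WT range. Macrophage CebpbΔM 4 was the highest of the 6 for 21 genes and WT 4 for 12, and CebpbΔM 6 or 7 was the lowest for 29. Across the 38 genes with at least 10 CPM in every MEC library, the log2 shares of any 2 macrophage libraries correlated with r from 0.708 to 0.924, a description across genes that share the same MEC denominator.

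The shares were far from equal. The median over the 6 libraries ran from 7.79% for Cldn4 to 205% for Pkp4, with 8 genes under 20%, 17 between 20% and 50%, 11 between 50% and 100%, and 3 above 100%. By role, the middle gene was at 23.4% for the tight junction membrane proteins and 27.9% for the desmosome, but at 42.7% for the adherens junction, 53.9% for the plaque and polarity group and 54.6% for the 3 regulators. The tight junction membrane proteins and the desmosome genes were thus lowest, and the tight junction plaque, polarity genes and regulators highest, with exceptions in each role.

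**Figure D3:**
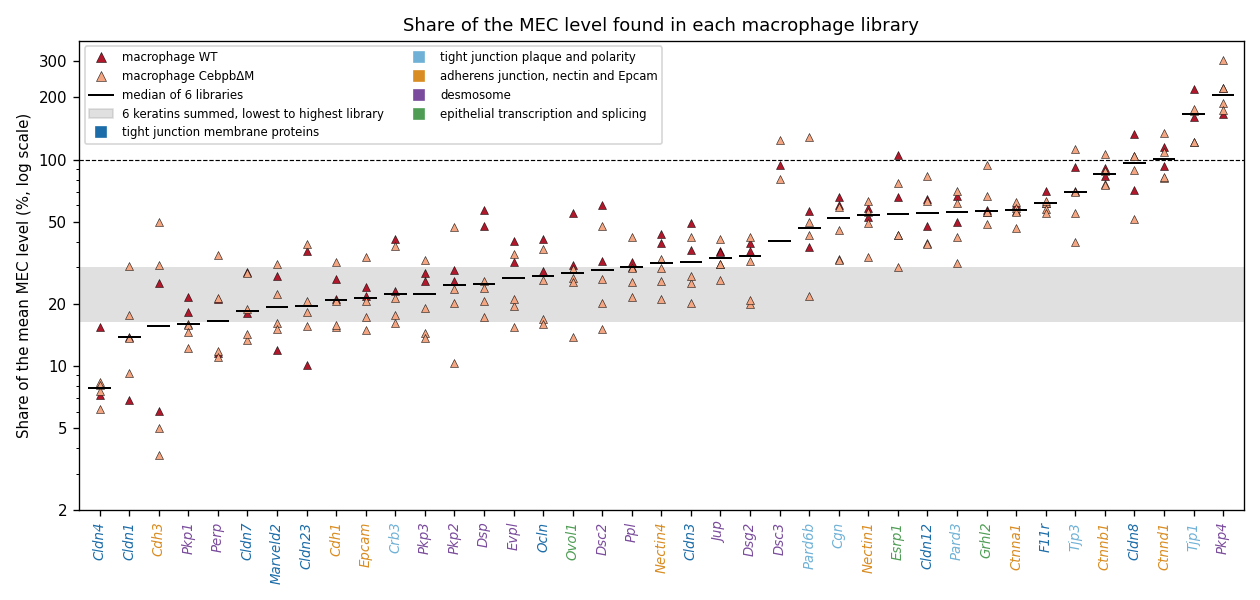
Share of the mean MEC level found in each of the 6 macrophage libraries, in percent on a log axis, for each gene in order of its median (black bar), with gene names colored by role. The grey band spans the share of 6 summed keratins over the same libraries, 16.3% to 30.0%, and the dashed line is 100%. Cldn4 lies below the band in every library, 21 genes lie above their library's keratin share in all 6 libraries, and Tjp1 and Pkp4 lie above 100% in all 6. Dsc3 at 0 in 3 libraries is not drawn.

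The keratins gave a yardstick measured in the same libraries. Their summed level was 29.1%, 30.0%, 19.1%, 16.6%, 16.3% and 19.8% of the MEC mean in macrophage WT 4, WT 5 and CebpbΔM 4 to 7. Of the 39 genes, 29, 24, 37, 34, 25 and 27 had a larger share than the keratins in these libraries. The same count over all genes is not given here. Single keratins spread around their sum, from 8.26% to 40.7% in WT 4 and from 2.55% to 41.6% in WT 5. In CebpbΔM 4 to 7 they ran from 10.1% to 45.9%, 13.0% to 26.4%, 10.6% to 19.7% and 1.87% to 34.5%. A share above the sum can therefore lie below that of a single keratin. Cldn4 and Pkp1 were at or below the keratin share in all 6, and 21 genes were above it in all 6, including Cldn3, F11r, the 3 catenins Ctnna1, Ctnnb1 and Ctnnd1, Dsp, Jup, Esrp1 and Grhl2. The 8 luminal markers summed to between 17.3% and 35.2% of the MEC level and the 8 basal markers to between 11.7% and 45.7%, so the epithelial lists themselves differed from library to library.

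At the low end stood claudins, other membrane proteins and the plaque protein Pkp1. In MEC WT 1 and 3 and CebpbΔM 1 and 3, Cldn4 stood at 2208, 1487, 4508 and 1679 CPM, and in macrophage WT 4 and 5 and CebpbΔM 4 to 7 at 382, 179, 206, 186, 199 and 153 CPM. The high value of MEC CebpbΔM 1 raised the MEC mean of Cldn4 and so lowered its shares. Cldn1, the claudin of the skin barrier and of many other epithelia, stood at 178, 178, 215 and 145 CPM in MECs, against 24.7, 12.1, 54.6, 24.4, 31.6 and 16.5 CPM. Every macrophage library lay below every MEC library for both claudins. Cldn7 stood at 732, 566, 698 and 505 CPM in MECs and at 178, 113, 177, 118, 83.0 and 88.8 CPM in the macrophage libraries, again without overlap.

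Cdh3, the cadherin of basal cells, was the least even of the low group, with 83.9, 42.3, 67.3 and 40.7 CPM in MECs and 14.8, 3.52, 29.0, 18.0, 2.93 and 2.16 CPM in macrophage libraries. Its share ran from 3.69% to 49.6%, and the macrophage library with the most Cdh3, CebpbΔM 4, was not the one with the most Cldn4, WT 4. Perp, a tetraspan protein of the desmosome, stood at 208, 270, 306 and 254 CPM in MECs and at 54.9, 29.9, 89.1, 55.1, 30.5 and 28.7 CPM in macrophage libraries. Plakophilin 1 (Pkp1), an armadillo protein of the desmosomal plaque, had 106, 109, 83.4 and 85.7 CPM against 20.8, 17.4, 15.2, 15.2, 14.1 and 11.7 CPM. Pkp1 was the steadiest of the low group, at 12.2% to 21.7% in the 6 libraries. Its gene span, introns included, overlaps that of Gm36938 on the same strand. Perp and Pkp1 were also lower in every macrophage library than in any MEC library.

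At the high end, Pkp4 and Tjp1 exceeded the MEC level. Pkp4 encodes plakophilin 4, an armadillo protein found at adherens junctions as well as desmosomes, and stood at 56.8, 50.2, 45.0 and 68.6 CPM in MECs and at 91.2, 122, 104, 96.2, 167 and 123 CPM in macrophage libraries. Tjp1 stood at 48.1, 50.3, 26.5 and 53.8 CPM in MECs and at 72.2, 98.2, 54.2, 76.4, 78.8 and 54.5 CPM in macrophage libraries. For both genes all 6 macrophage libraries lay above all 4 MEC libraries on this scale, although for Tjp1 the gap between CebpbΔM 4 and MEC CebpbΔM 3 was narrow. The separation of Tjp1 depended on the scaling. In TPM, macrophage CebpbΔM 7 (18.2 TPM) was below MEC CebpbΔM 3 (19.0 TPM). The span of Tjp1, introns included, overlaps those of Gm44792 and Gm44794 on the same strand. Whether their exons overlap was not examined, and reads could be lost or split only where they do.

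Between these ends, Ctnnd1 had 27.1, 27.3, 22.0 and 26.7 CPM in MECs and 24.0, 29.8, 20.9, 28.0, 34.6 and 21.3 CPM in macrophage libraries. Ctnnb1 had 150, 167, 207 and 182 CPM against 160, 147, 187, 155, 134 and 134 CPM. Both catenins overlapped between the cell types. The span of each gene, introns included, overlaps that of another gene on the same strand, Gm28635 and Mir7090. The claudin Cldn8 overlapped too, with 46.0, 39.5, 32.7 and 39.1 CPM in MECs and 52.3, 27.9, 35.1, 41.0, 20.4 and 40.7 CPM in macrophage libraries. It was the only one of the 10 tight junction membrane proteins that did. Tjp3, which encodes ZO-3, had 76.2, 61.4, 70.9 and 54.5 CPM against 60.5, 46.3, 73.7, 45.7, 26.2 and 36.0 CPM, with macrophage CebpbΔM 4 above 3 MEC libraries.

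Over the whole set, 28 genes were lower in all 6 macrophage libraries than in all 4 MEC libraries (16.5% of all genes tested were), 2 were higher in all 6 (19.8% of all genes), and 9 were neither. The 9 were Cldn8, Tjp3, Pard6b, Ctnnb1, Ctnnd1, Dsc2, Dsc3, Esrp1 and Grhl2. By role, 9 of 10 tight junction membrane proteins, 9 of 12 desmosome genes and 6 of 8 adherens junction genes were lower throughout, but only 3 of 6 plaque and polarity genes and 1 of 3 regulators.

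**Figure D4:**
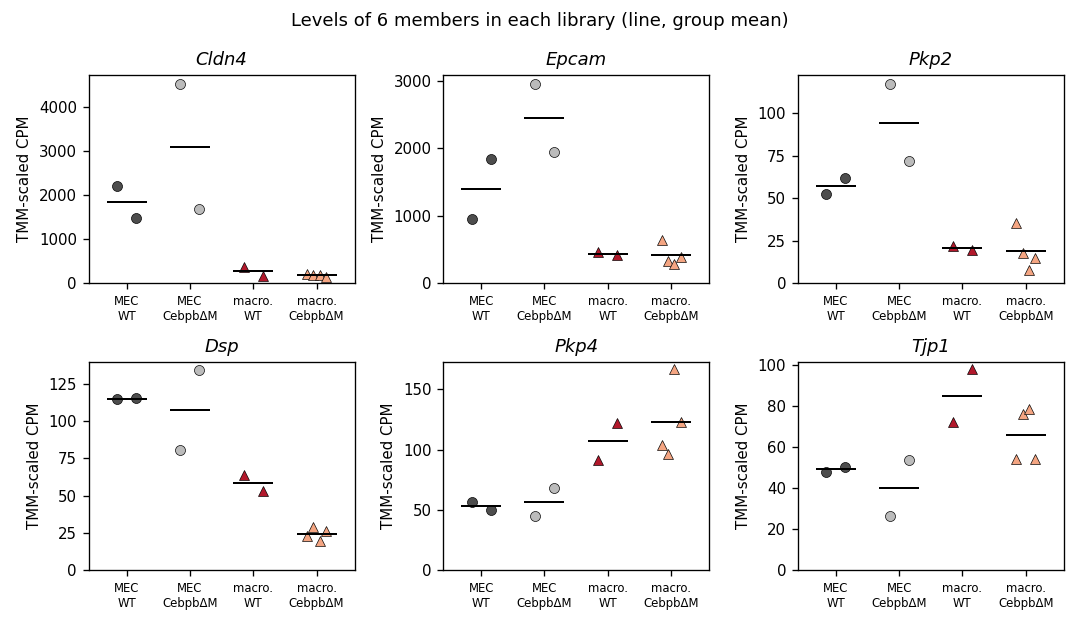
Levels of Cldn4, Epcam, Pkp2, Dsp, Pkp4 and Tjp1 in each library as TMM-scaled CPM, on linear axes from 0, with 1 point per library and a line at the group mean. Cldn4, Epcam, Pkp2 and Dsp are lower in all 6 macrophage libraries than in all 4 MEC libraries, and Pkp4 and Tjp1 are higher. MEC CebpbΔM 1 is the highest point for Cldn4, Epcam and Pkp2.

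Tested in the model over all 10 libraries, macrophage WT was lower than MEC WT for 22 of the 39 genes and higher for 1 by edgeR's quasi-likelihood (QL) test at an adjusted P of 0.05 or less. Of all 18323 genes, 25.5% were called and 10.7% were called lower. In CebpbΔM mice, 28 genes were lower and 1 higher, against 33.7% of all genes called and 14.7% called lower. The median log2 fold change of the 39 genes was -1.36 in WT and -1.69 in CebpbΔM, whereas that of all genes was 0.06 and 0.07. In bulk libraries fewer cells of a type and less RNA per cell cannot be told apart. The count in WT fell when macrophage WT 5, MEC WT 1 or MEC WT 3 was left out, and so did the count over all genes. Each of these fits left 1 library in a group. The median log2 fold change of the 39 genes was then -1.30, -1.35 and -1.31.

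The tight junction membrane proteins were called lower for 8 of 10 genes in both genotypes, led by Cldn1 (log2 fold change -3.27, SE 0.52, QL adjusted P = 0.00108 in WT) and Cldn4. Cldn4 had a log2 fold change of -2.72 (SE 0.47, QL adjusted P = 0.0017) in WT and -4.06 (SE 0.38, QL adjusted P = 1.73e-05) in CebpbΔM. Cldn8 and Cldn12 did not pass in either genotype. Of the plaque and polarity genes, 1 of 6 was called lower in WT, Crb3, whose levels were 88.1, 89.7, 90.1 and 74.0 CPM in MECs and 35.1, 19.8, 32.4, 18.2, 13.7 and 15.1 CPM in macrophage libraries. In CebpbΔM 3 of 6 were lower, Crb3, Cgn and Pard3. Tjp1 had a log2 fold change of 0.79 (SE 0.33, QL adjusted P = 0.101) in WT and 0.72 (SE 0.29, QL adjusted P = 0.0816) in CebpbΔM.

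The adherens junction group was called lower for 4 of 8 genes in WT and 5 in CebpbΔM. Cdh1 had a log2 fold change of -2.20 in WT (SE 0.33, QL adjusted P = 0.000731) and -2.12 in CebpbΔM (SE 0.26, QL adjusted P = 0.000128). The log2 fold change of Epcam was -1.66 (SE 0.41, QL adjusted P = 0.0126) in WT and -2.56 (SE 0.33, QL adjusted P = 0.000175) in CebpbΔM. Values of Ctnnd1 were near the MEC level, with -0.02 (SE 0.28) in WT and 0.11 (SE 0.24) in CebpbΔM. Ctnnb1 was at -0.04 (SE 0.21) and -0.35 (SE 0.18).

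In the desmosome group, 8 of 12 genes were lower and 1 higher in WT, and 10 lower and 1 higher in CebpbΔM. Pkp1 had the smallest P of all 39 genes in both contrasts, at a log2 fold change of -2.49 (SE 0.21, QL adjusted P = 1.26e-05) in WT and -2.59 (SE 0.17, QL adjusted P = 1.16e-06) in CebpbΔM. Jup, the highest desmosome gene, stood at 1251, 945, 1138 and 797 CPM in MECs and at 373, 367, 427, 268, 323 and 323 CPM in macrophage libraries, at a log2 fold change of -1.57 (SE 0.26, QL adjusted P = 0.00141) in WT. The gene called higher was Pkp4 in both genotypes, with 0.997 (SE 0.30, QL adjusted P = 0.0304) in WT and 1.11 (SE 0.27, QL adjusted P = 0.00828) in CebpbΔM. The call of Pkp4 was lost when any of MEC WT 1, MEC WT 3 or macrophage WT 5 was left out in WT, and without MEC CebpbΔM 1 in CebpbΔM (QL adjusted P = 0.107).

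Markers of other cells also moved with the cell type contrast. The 6 endothelial markers, among them Pecam1 and Cdh5, summed to between 91.4 and 132 CPM in MECs, between 1478 and 1649 CPM in macrophage WT and between 918 and 2056 CPM in macrophage CebpbΔM, none at 0, and all 6 were called higher in both genotypes. The 6 fibroblast markers were high in every library, with 5269 to 6432 CPM in MECs and 3244 to 7599 CPM in macrophages. Endothelial cells also use ZO-1 and the catenins at their junctions, and their part in the levels of Tjp1, Pkp4, Ctnnb1 and Ctnnd1 was not tested. The 6 markers of dendritic and Langerhans cells, the latter of which carry E-cadherin and Epcam in skin, summed to between 3.32 and 6.60 CPM in MECs, between 154 and 234 CPM in macrophage WT and between 236 and 490 CPM in macrophage CebpbΔM. Flt3, Cd209a and Cd207 were at 0 in at least 1 library, and the part of these cells was likewise not tested. Lymphocyte, adipocyte and mesothelial markers summed to 11.1 CPM or less in each library.

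In MECs, deletion of Cebpb in myeloid cells was accompanied by no called difference in the 39 genes (0 of 39 by the QL test, where 8 of 15698 genes, 0.051%, were called). An unadjusted P under 0.05 was reached by 2 of the 39, against 5.42% of all genes. The likelihood ratio test and DESeq2 also called 0. The median log2 fold change was -0.11 over the 39 genes and -0.01 over all genes, with 11 higher and 28 lower. The 2 genotypes did not overlap for 10 of the 39 (3 higher and 7 lower), or 25.6%, close to the 28.2% of all genes.

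Pkp2, a plakophilin of the desmosomal plaque (chr16:16213318-16272712, plus strand of GRCm38), had the smallest P in MECs. It stood at 52.3 and 61.8 CPM in WT and 117 and 71.7 CPM in CebpbΔM, so both CebpbΔM libraries were higher (log2 fold change 0.74, SE 0.25, adjusted P = 0.521 by the QL test). Epcam stood at 955 and 1836 CPM in WT and 2956 and 1942 CPM in CebpbΔM (0.82, SE 0.33, adjusted P = 0.766 by the QL test), also without overlap, though the WT libraries were themselves far apart. Cldn4, whose values are above, overlapped between the genotypes, with MEC CebpbΔM 1 far above the other 3 libraries (0.76, SE 0.39, adjusted P = 0.9997 by the QL test).

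Desmocollin 2 (Dsc2), a desmosomal cadherin, stood at 60.9 and 60.2 CPM in WT and 27.2 and 55.7 CPM in CebpbΔM (-0.52, SE 0.31). Pkp1 was lower in both CebpbΔM libraries by a smaller amount (-0.32, SE 0.20). The differences of Cldn4, Pkp2 and Dsc2 depended on MEC CebpbΔM 1. Without MEC CebpbΔM 3, so that MEC CebpbΔM 1 stood alone against WT, 3 of the 39 were called, Cldn4 (1.28) and Pkp2 (1.03) higher and Dsc2 (-1.16) lower, along with 2.2% of all genes. Without MEC CebpbΔM 1, Cldn4 was at -0.09, Pkp2 at 0.37 and Dsc2 at -0.07.

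Among the macrophage libraries, 0 of the 39 genes were called between genotypes by the QL test, and 0 of all 17772 genes were (0%). At an unadjusted P under 0.05 there were 5 of the 39, against 8.63% of all genes, and all 5 were lower in the libraries labelled CebpbΔM. The likelihood ratio test and DESeq2 each called 1 of the 39, Dsp, where they called 0.777% and 1.13% of all genes. The median log2 fold change was -0.20 over the 39 genes and 0.00 over all genes, with 9 higher and 30 lower. The genotypes did not overlap for 5 of the 39 (18.5% of all genes), and all 5 were lower (8.1% of all genes).

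Dsp (chr13:38151294-38198577, plus strand of GRCm38) encodes desmoplakin, which links desmosomes to keratin filaments. It stood at 63.6 and 52.8 CPM in macrophage WT and at 23.0, 28.8, 19.3 and 26.6 CPM in macrophage CebpbΔM. Every library labelled CebpbΔM was well below both labelled WT, and the log2 fold change was -1.28 (SE 0.21, adjusted P = 0.452 by the QL test). Its adjusted P was 0.000642 by edgeR's likelihood ratio test and 0.000448 by DESeq2. In MECs, Dsp stood at 115 and 115 CPM in WT and 80.7 and 134 CPM in CebpbΔM, which overlapped.

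The other 4 genes were Nectin4, Ovol1, Esrp1 and Cgn. Nectin4, an adhesion receptor that partners with Nectin1, stood at 60.3 and 54.9 CPM in the libraries labelled WT and 45.6, 41.6, 35.9 and 29.3 CPM in those labelled CebpbΔM, without overlap (-0.62, SE 0.21, adjusted P = 0.521 by the QL test). Ovol1, a zinc finger repressor that maintains epithelial identity, stood at 82.3 and 46.1 CPM against 44.0, 39.8, 20.5 and 38.1 CPM, and the groups nearly touched (-0.87, SE 0.33, adjusted P = 0.536 by the QL test). Esrp1, which directs epithelial splice forms, stood at 78.1 and 48.8 CPM against 57.0, 32.0, 22.4 and 31.7 CPM and overlapped (-0.85, SE 0.36, adjusted P = 0.565 by the QL test). Cingulin (Cgn), a plaque protein that binds ZO-1, stood at 67.8 and 74.0 CPM against 65.9, 36.9, 36.5 and 51.4 CPM, with CebpbΔM 4 close below WT 4 (-0.60, SE 0.26, adjusted P = 0.579 by the QL test). The fifth gene without overlap was Pkp1.

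The summed keratin RNA, most of it from luminal keratins, was lower in all 4 macrophage libraries labelled CebpbΔM than in both labelled WT. Of the 6 keratins, 4 had a lower value and 2 a higher one, the basal Krt5 (log2 fold change 1.30) and Krt14 (1.53), with 0 called. Likewise, 7 of the 8 luminal markers were lower by fold change while all 8 basal markers were higher, with 0 of either list called. Summed luminal markers ran from 10040 to 10710 CPM in WT and from 5275 to 7548 CPM in CebpbΔM, and basal markers from 934 to 1349 CPM and from 814 to 3190 CPM, with none at 0. A covariate model used the mean log2 CPM of the 6 keratins, with equal weight for each, and not their sum. Krt5 and Krt14 therefore counted as much as the luminal keratins, so the model does not adjust for the lower sum. With this covariate, the median log2 fold change of the 39 genes was -0.08, with 13 higher. All 10 macrophage markers had a higher value in the libraries labelled CebpbΔM, with 0 called. By the QL test, 6 of these 10 had an unadjusted P under 0.05, against 8.63% of all genes. So did 4 of the 6 keratins, 4 of the 8 luminal markers and 0 of the 8 basal markers. The keratin and luminal lists share genes.

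The size of the shift over the set, though not its sign, changed with the libraries compared. Without macrophage CebpbΔM 4, which had the highest level of 21 genes, the median was -0.41, and without macrophage WT 4 it was -0.06. Replicates 6 and 7 exist only in the CebpbΔM group. Limited to replicates 4 and 5 of both genotypes, a comparison added after the values were seen, the median was -0.07 with 19 genes higher, and Dsp was at -1.18 (adjusted P = 0.327 by the QL test).

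**Figure D5:**
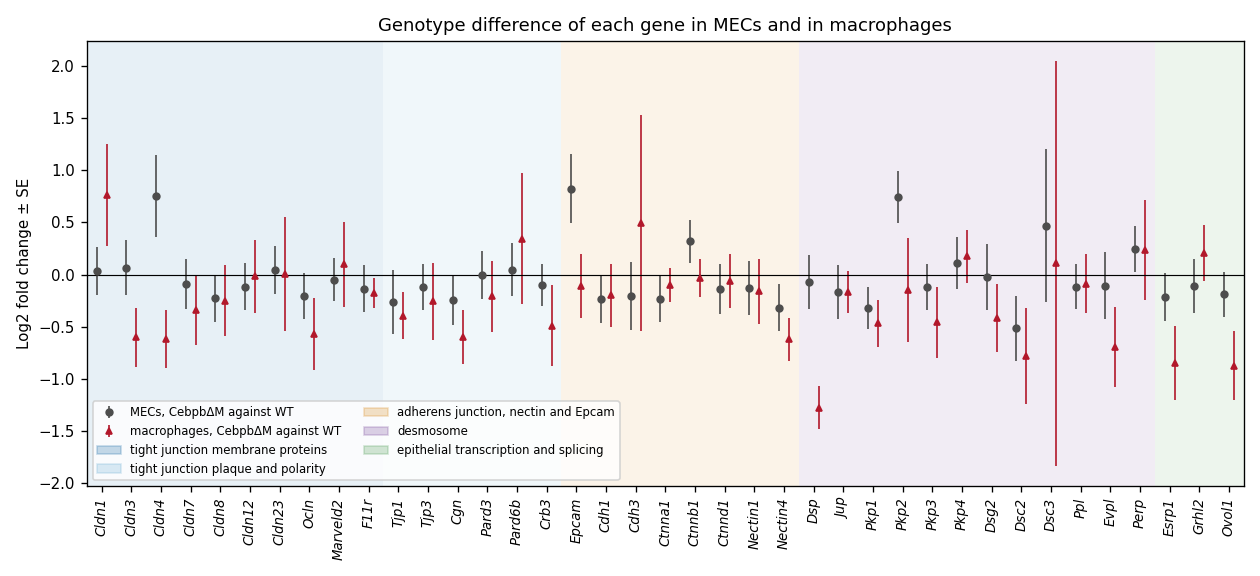
Log2 fold change of each of the 39 genes between CebpbΔM and WT, in MECs (circles) and in macrophage libraries (triangles), with bars of 1 SE and genes grouped by role (background color). Values above 0 are higher in CebpbΔM. Dsp in macrophage libraries is the lowest point at -1.28, Epcam, Cldn4 and Pkp2 are the highest circles, and Dsc3 has the widest bar because of its low counts.

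Whether the genotype difference itself differed between MECs and macrophages was asked with an interaction term in the model of all 10 libraries. It was called for 0 of the 39 genes and 0 of 18323 genes (0%) by the QL test, and 2 of the 39 had an unadjusted P under 0.05, against 5.19% of all genes. The likelihood ratio test and DESeq2 also called 0 of the 39. The 2 genes were Dsp (-1.15, SE 0.35, adjusted P = 0.898) and Cldn4 (-1.34, SE 0.58, adjusted P = 0.945), both lower in the macrophage difference than in the MEC difference.

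A wider list of 53 other junction genes, 52 of which were matched, also gave 0 calls between genotypes. In MECs, 43 were tested and 0 called, with Pard6g, a polarity gene, at 0.63 and Jam2, a junctional adhesion molecule, at -0.58 having the smallest P (adjusted P = 0.756 and 0.815 by the QL test). In macrophages, 44 were tested and 0 called. The smallest P belonged to Marveld3, a tight junction membrane protein, at -0.85 (SE 0.24, adjusted P = 0.480 by the QL test) and Plekha7, an adherens junction plaque protein, at -0.63 (SE 0.20, adjusted P = 0.512 by the QL test). Between cell types, 17 of 45 were called in WT, 8 higher and 9 lower in macrophages, and 23 in CebpbΔM, 10 higher and 13 lower, where 25.5% and 33.7% of all genes were called.

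A further list of 14 genes of the epithelial state held activators and repressors of junction genes, and the filament gene Vim. In MECs, 13 were tested and 0 called, with Twist2, a repressor of epithelial genes, at 1.40 (SE 0.43, adjusted P = 0.405 by the QL test) and Ehf, an epithelial ETS factor, at -0.69 (SE 0.21, adjusted P = 0.418 by the QL test). An unadjusted P under 0.05 by the QL test was reached by 3 of the 13, against 5.42% of all genes. In macrophages, 14 were tested and 0 called, and 1 had an unadjusted P under 0.05 by the QL test, against 8.63% of all genes. The splicing regulator Esrp2 was at -0.58 (SE 0.24, adjusted P = 0.555 by the QL test) and the repressor Zeb2, which macrophages also express, at 0.41 (SE 0.21, adjusted P = 0.632 by the QL test). Between cell types, 8 of 14 were called in WT, 4 in each direction, and 10 in CebpbΔM, 4 higher and 6 lower in macrophages, against the same 25.5% and 33.7% of all genes.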

How the data were processed

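RNA of 4 MEC and 6 macrophage libraries was prepared by the authors with TRIzol and sequenced from low-input libraries as 150-bp read pairs. The authors used Trimmomatic (version 0.33) for trimming and HISAT2 (version 2.1.0) for mapping on GRCm38, and counted reverse-stranded pairs with mapping quality of at least 10 on Ensembl release 100 using featureCounts (version 1.6.2). The deposited values are raw counts per gene. Members and lists were chosen with earlier results of these data known.

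Symbols matched 55141 of 55487 gene IDs. Genes under 300 nt were removed, and genes over 1 CPM in at least 2 libraries of a fit were tested (15698 in MECs, 17772 in macrophages, 18323 in all). The QL test of edgeR (version 4.0.16, R 4.3.3) with TMM and Benjamini–Hochberg adjustment over all genes had a threshold of 0.05. MEC and macrophage genotypes were fitted separately, and cell type contrasts and the interaction over all 10 libraries. The log2 CPM of the keratin covariate used a prior count of 2. TPM used the gene lengths of the tables. Alternatives were the likelihood ratio test named in the study's methods, DESeq2 (version 1.42.0), other normalization and filters, a replicate block, a keratin covariate, a joint fit and each library left out. Scripts were tested on simulated data.

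Genes named with values in every library were the 5 of smallest P in each cell type's genotype test, the highest TPM of each role, and the 6 lowest and 6 highest median shares. Promoters came from RefSeq windows on GRCm38.p6, 250 bases before each start. Counting error alone puts the floor at 3 counts (0.111 to 0.177 CPM).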

Additional observations from a re-analysis of the deposited data

Results flagged for a closer look

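The summed level of the 12 desmosome genes in macrophage CebpbΔM 4 was 942 CPM, far from the other 3 libraries of its group, which lay between 611 and 625 CPM. It was compared with the group's range by Dixon's ratio at the 95% level. In all, 51 groups of 4 libraries were examined, and 1 was singled out, where chance alone picks about 1 in 20 groups. Macrophage WT 4 and 5 stood at 808 and 835 CPM, so CebpbΔM 4 was also above both of them. The cause was not tested.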

How the results depend on the processing

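Without MEC CebpbΔM 3, 3 of the 39 genes were called between MEC genotypes (0 to 3 over the libraries left out), and in macrophages the likelihood ratio test and DESeq2 each called 1. Leaving out single libraries gave 11 to 27 called genes between cell types in WT and 24 to 34 in CebpbΔM, and 0 for the macrophage genotype and the interaction. The mean summed level of MEC WT was 11440 CPM with TMM against 10730 CPM without. Among the genes named for each comparison, log2 fold changes changed sign with a library left out for Cldn4 between MEC genotypes (-0.091 to 1.28), for Ctnnb1 (-0.12 to 0.058), Cldn8 (-0.57 to 0.34) and Ctnnd1 (-0.13 to 0.17) between cell types in WT, and for Cldn8 (-0.19 to 0.12) and Ctnnd1 (-0.050 to 0.25) in CebpbΔM. The cause was not tested, except that leaving out a library also leaves fewer samples. With the replicate number as a block, 0 of the 39 genes were called for either genotype comparison and 0 for the interaction, and the count over all genes went from 8 to 205 in MECs and from 0 to 12 in macrophages. Deviations of same-numbered libraries correlated with r = 0.101 in MECs and 0.0379 in macrophages, with fewer than 3 pairs each, so the numbers were taken as names only. The cell type contrasts could not be fitted with the block, because no number occurs in both cell types. Of the values for named genes, 459 kept direction and side of the threshold, 12 passed it newly, 5 fell short of it and 14 changed sign.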
